A study of Mus musculus with 8 samples.

Results

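The mitochondrial genome is a small circle that encodes 13 proteins of the respiratory chain and of ATP synthase, the 22 tRNAs and 2 ribosomal RNAs needed to translate them, 37 genes in all. All 37 were found by the prefix mt- of their mouse symbols among the 49671 genes of the deposited count table, and all 37 lie on chromosome M of the mouse build mm10. The table covers 8 tumor libraries of 1 group, numbered 1, 2L, 2R, 3, 4a, 4b, 5 and 6. Every tumor has the genotype HprtCre with Ewsr1-loxP and Atf1-loxP, in which Cre made from the Hprt locus joins Ewsr1 and Atf1, the fusion known from human clear cell sarcoma. The tumors were induced genetically, were given no drug and were frozen at morbidity from the primary tumor, and total RNA was sequenced after Ribo-Zero depletion of ribosomal RNA, per the labels. Age, strain, a control group and any tissue beyond tumor are not given in the labels. The meaning of the numbers and suffixes is not given either. Libraries of the same number may therefore share a tumor or an animal, and a spread between libraries may be technical.

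Mitochondrial RNA is made as long transcripts of both strands. Most genes belong to the transcript read from the heavy strand, and mt-Nd6 with 8 tRNAs belongs to the opposite transcript. tRNAs lie between most of the other genes, and their excision releases the ribosomal RNAs and mRNAs, whose amounts then depend on processing, polyadenylation and decay. Stretches of mitochondrial DNA are also found in the nuclear genome, where they are annotated as pseudogenes.

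The libraries held between 4817902 counts (3) and 19682149 counts (2L). Levels are given as counts per 1000000 counts of the library (CPM), without further scaling unless TMM, edgeR's scaling factors, is named. Library 3 had the fewest detected genes, 17952, against 21350 to 24763 in the others, and 27.6% of its counts came from Gm26917 and Gm42418, which carry nuclear ribosomal RNA sequence, against 0.507% to 8.66% elsewhere.

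mRNA counts stopped inside 1 continuous stretch of the mitochondrial genome. Of the 13 mRNAs, mt-Co2, mt-Atp8, mt-Atp6, mt-Nd3 and mt-Nd4l had 0 counts in all 8 libraries, and mt-Co3 had 1 count in all. These 6 genes are neighbours, and they encode subunits of cytochrome c oxidase (mt-Co2, mt-Co3), of ATP synthase (mt-Atp6, mt-Atp8) and of complex I (mt-Nd3, mt-Nd4l). The 5 mRNAs that lie wholly outside this stretch, mt-Nd1, mt-Nd2, mt-Nd5, mt-Nd6 and mt-Cytb, had counts in every library, from 176 counts of mt-Nd6 in 2L to 146175 of mt-Cytb in 3. mt-Co1 and mt-Nd4 lie across its ends and were also counted in every library, with 54565 to 410798 and 4838 to 68231 counts.

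The stretch without mRNA counts is also annotated in a near-identical form on chromosome 1. The GENCODE M21 transcripts were searched for relatives of the 37 genes, at 95% identity or more over at least 100 bases. The tRNA genes are shorter than 100 bases and could return no match. The search found 11 annotated pseudogenes, and 7 of them are neighbours on chromosome 1 (chr1:24611535-24616197, minus strand). They match chrM:6390-11042 from the end of mt-Co1 into mt-Nd4, at 99.71% to 100% identity, and 5 of the 7 are identical to their mitochondrial gene over the whole aligned part. Gm28661 matches mt-Co2 over 681 of 684 bases, Gm10925 matches mt-Atp6 over 678 of 681, Gm28437 matches mt-Co3 over 783 of 784, Gm10222 matches mt-Nd4l over 294 of 297, and Gm28439 covers 876 of the 1378 bases of mt-Nd4. Apart from the 43 bases it shares with mt-Atp6, mt-Atp8 lies in the gap between Gm10925 and Gm28661 and was not compared. The 7 copies together held 115 counts in all libraries, 56 of them in Gm28661. The sources used here do not say how reads with more than 1 equally good position were counted, and what part such reads have in the zeros was not tested.

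How little separates the copies is shown by the mitochondrial bases beside their chromosome 1 counterparts at the single base in which each of the other 2 pairs differs, in capitals. The windows come from the GENCODE M21 transcripts, as do the other sequences shown, and are read 5′ to 3′ along the transcript, and positions count from 1 at the 5′ end of the mitochondrial gene. The change is T3C in mt-Nd3 (chrM:9459-9491) against Gm28438 (chr1:24613087-24613119, minus strand), and A1066T in mt-Co1 (chrM:6390-6423) against Gm29216 (chr1:24616155-24616188, minus strand).
mt-Nd3: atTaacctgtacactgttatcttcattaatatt
Gm28438: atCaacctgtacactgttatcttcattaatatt
mt-Co1: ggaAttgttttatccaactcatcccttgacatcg
Gm29216: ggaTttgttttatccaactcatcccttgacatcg
No other base differed over the 345 aligned bases of mt-Nd3 or the 483 of mt-Co1, so a read from most positions of these stretches has the same letters in both places.

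**Figure D1:**
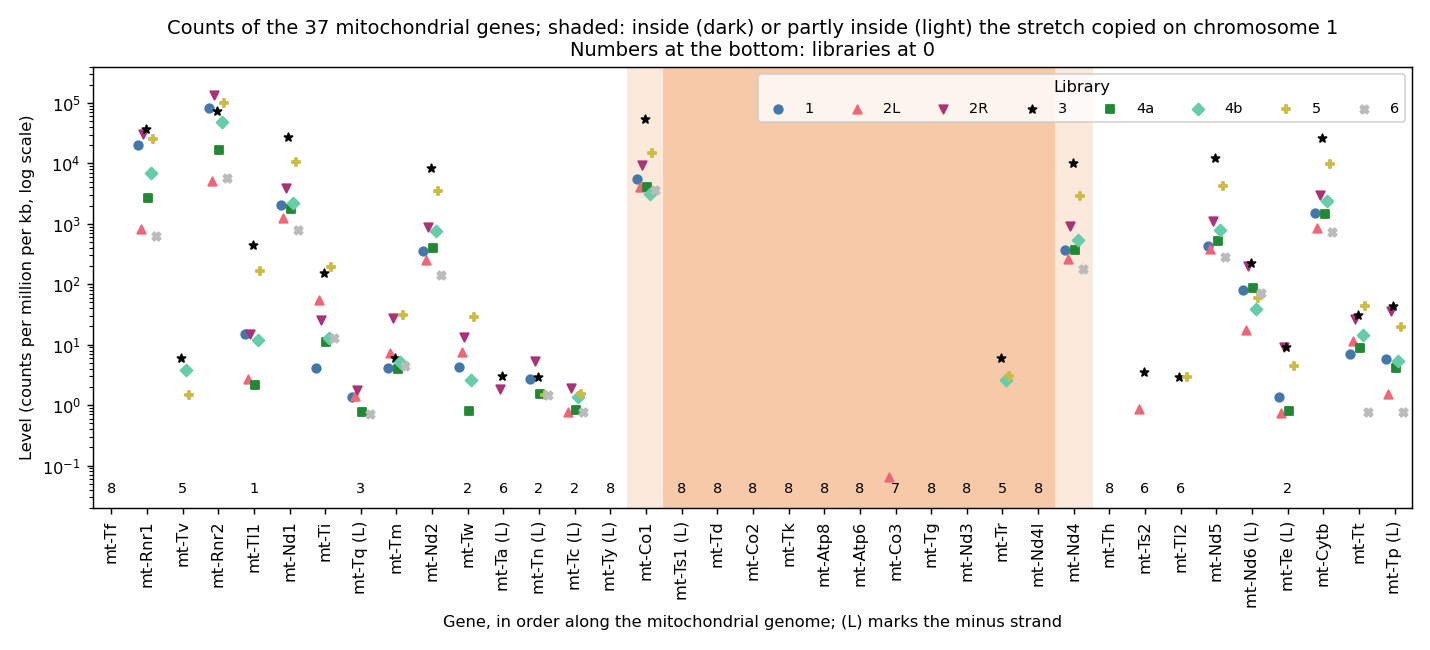
CPM per kilobase (log axis) of the 37 genes in their order along the mitochondrial genome, 1 point per library, with the number of libraries at 0 printed at the bottom. The 11 genes wholly inside the stretch copied on chromosome 1 (dark shading) hold at most 6 counts each over the 8 libraries, and mt-Co1 and mt-Nd4 lie partly inside it (light shading).

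Among the copies outside chromosome 1, Gm13340 and Gm13341 held the most counts. Gm13340 on chromosome 2 (chr2:22588103-22589647) matches mt-Co1 over all 1545 bases at 97.6% identity and held 2022 counts, which were 0.131% to 0.200% of those of mt-Co1 in the same library. Gm13341 beside it matches mt-Co2 at 95.9% and held 25 to 151 counts per library, while mt-Co2 itself had 0 in each. Gm13339 (96.7% identical to part of mt-Nd2) and Gm4076 on chromosome 13 (95.2% identical to part of mt-Nd5) held 30 and 46 counts in all. For mt-Co1 and mt-Co2, the more identical copy held fewer counts. Gm29216 (99.8% identical to part of mt-Co1) held 4 against 2022 in Gm13340. Gm28661, identical to mt-Co2 over the aligned part, held 56 against 482 in Gm13341. Across different genes this order did not hold throughout, since Gm28661 held more than Gm13339 or Gm4076. The 0 of mt-Co2 stands beside counts for both of its copies, and the reason was not tested.

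**Figure D2:**
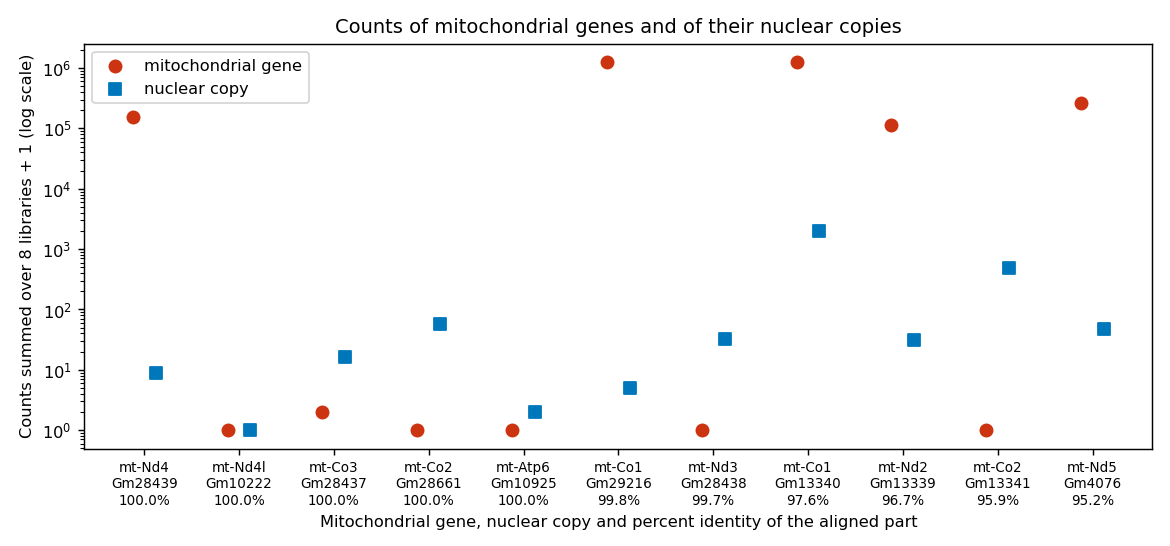
Counts summed over the 8 libraries, plus 1 (log axis), of each mitochondrial gene (circles) and its nuclear copy (squares), ordered from left to right by falling identity of the aligned part. mt-Co2, mt-Atp6, mt-Co3, mt-Nd3 and mt-Nd4l hold at most 1 count, and the highest copy is Gm13340 with 2022.

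Some members overlap each other, and how this bears on their counts was not tested. Of 9 overlaps between neighbours, that of mt-Atp8 and mt-Atp6 is the longest, at 43 bases (chrM:7927-7969). The end of mt-Atp8 (chrM:7907-7969) is shown with the bases shared with mt-Atp6 in capitals, and that of mt-Nd4l (chrM:10114-10173) with the 7 bases shared with mt-Nd4 in capitals.
mt-Atp8: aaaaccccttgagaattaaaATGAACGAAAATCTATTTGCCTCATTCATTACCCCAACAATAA
mt-Nd4l: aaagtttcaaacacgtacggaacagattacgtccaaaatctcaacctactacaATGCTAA
Both pairs are carried on a shared mRNA in mammals, which is background here, since the counts of mt-Atp8, mt-Atp6 and mt-Nd4l were 0 in every library. mt-Nd5 and mt-Nd6 overlap by 14 bases on opposite strands, and strand handling is not stated, so counts of mt-Nd6 may include opposite-strand RNA.

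tRNA genes were barely counted. The 22 tRNAs held 956 counts in all 8 libraries together, from 29 counts in 6 to 344 in 5. Of these genes 7 were at 0 throughout, 7 more held 1 to 9 counts and 8 held 10 or more. The genes at 0 were mt-Ts1, mt-Td, mt-Tk and mt-Tg, which lie by position inside the copied stretch, and mt-Tf, mt-Ty and mt-Th outside it. The fifth tRNA inside that stretch, mt-Tr, held 6 counts. No tRNA was compared with a nuclear copy by sequence, since every tRNA gene is shorter than the 100 bases that the search required. The pseudogene transcripts of chromosome 1 also do not cover the tRNAs of the copied stretch. Outside it, mt-Tp held 62 counts over the 8 libraries, mt-Tw 42, mt-Te 14 and mt-Tn 11, and mt-Tv, mt-Tq, mt-Ta, mt-Tc, mt-Ts2 and mt-Tl2 held 2 to 6 each. The 14 tRNAs of the plus strand held 855 counts and the 8 of the minus strand 101. A count of 0 in all 101667660 counts allows up to 3 counts, or 0.0295 CPM, and this floor covers counting error only. The tRNA genes are 59 to 75 bases long, and how far RNAs this short were kept in the libraries was not tested. Their counts are therefore not given as amounts of tRNA in the tumors.

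The 4 tRNAs with most counts and mt-Tk, at 0 inside the copied stretch, are shown whole and in the direction of the transcript, with the 3 bases that mt-Ti shares with the opposite-strand mt-Tq in capitals. Their positions are chrM:2676-2750 for mt-Tl1, chrM:3706-3774 for mt-Ti, chrM:15289-15355 for mt-Tt, chrM:3845-3913 for mt-Tm and chrM:7700-7764 for mt-Tk, all on the plus strand.
mt-Tl1: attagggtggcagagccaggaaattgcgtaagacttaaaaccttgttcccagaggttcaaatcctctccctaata
mt-Ti: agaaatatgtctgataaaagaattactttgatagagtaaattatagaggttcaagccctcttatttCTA
mt-Tt: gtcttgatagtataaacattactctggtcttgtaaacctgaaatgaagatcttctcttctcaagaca
mt-Tm: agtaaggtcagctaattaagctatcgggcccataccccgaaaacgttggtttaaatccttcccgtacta
mt-Tk: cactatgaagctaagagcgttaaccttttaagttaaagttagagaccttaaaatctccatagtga
mt-Tl1, a leucine tRNA that lies between mt-Rnr2 and mt-Nd1, had 12, 4, 9, 161, 3, 10, 123 and 0 counts in 1, 2L, 2R, 3, 4a, 4b, 5 and 6. It was high in 3 and 5, at 33.4 and 12.6 CPM, and had at most 12 counts elsewhere. It made up 64.7% of the tRNA counts in 3 and 35.8% in 5, but also 35.3% in 1, where 12 of 34 tRNA counts were its own. mt-Ti, the isoleucine tRNA, had 3, 74, 14, 51, 14, 10, 130 and 17 counts in the same order, and was highest in 5 and 3, at 13.3 and 10.6 CPM, followed by 2L at 3.76 CPM. mt-Tt, the threonine tRNA, had 5, 15, 14, 10, 11, 11, 28 and 1 counts, and mt-Tm, the methionine tRNA, had 3, 10, 15, 2, 5, 4, 21 and 6. Both had their highest count and their highest level in 5. All tRNAs together made up 0.00517% of the counts of library 3 (95% Wilson interval 0.00456% to 0.00585%) and 0.000150% of those of 6 (0.000104% to 0.000215%).

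The ribosomal RNAs took very unequal parts of the libraries. mt-Rnr1 (12S, ENSMUSG00000064337, chrM:70-1024) and mt-Rnr2 (16S, ENSMUSG00000064339, chrM:1094-2675), the RNA cores of both subunits of the mitochondrial ribosome, together made up 15.0%, 0.877%, 24.7%, 15.1%, 2.90%, 8.27%, 18.0% and 0.982% of the counts in 1, 2L, 2R, 3, 4a, 4b, 5 and 6. The highest share was 28.1 times the lowest. Libraries 2L, 6 and 4a were low, and 2R, 5, 3 and 1 were high. The 95% Wilson intervals of these shares spanned no more than 24.6% to 24.7% in 2R and 0.873% to 0.881% in 2L. In bulk tissue, fewer cells of a type and less RNA per cell cannot be told apart.

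The 12S and 16S RNAs did not have the same order. mt-Rnr2 stood at 130080, 7990, 217798, 115348, 26379, 76086, 156027 and 9208 CPM in 1, 2L, 2R, 3, 4a, 4b, 5 and 6, and was highest in 2R. mt-Rnr1 stood at 19438, 777, 28957, 35530, 2599, 6633, 24255 and 608 CPM in the same order, and was highest in 3. Libraries 2L and 6 were the lowest for both.

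Shares of the nuclear ribosomal sequence carried by Gm26917 and Gm42418 differed as well, at 8.66%, 0.920%, 7.02%, 27.6%, 1.25%, 3.61%, 3.90% and 0.507% in the same order. Libraries 2L, 6 and 4a were the lowest in both, whereas 2R was highest for mitochondrial and 3 for nuclear ribosomal sequence. The top library depends on the denominator: per 100 nuclear protein-coding counts, mitochondrial rRNA was highest in 3, at 64.0, against 42.97 in 2R, and per 100 counts of nuclear respiratory chain genes it stood at 11093 in 3 and 6293 in 2R. The part of the depletion step in these shares was not tested.

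The mitochondrial mRNA share followed another order. The counted mRNAs made up 1.38%, 0.975%, 2.62%, 18.7%, 1.15%, 1.27%, 6.01% and 0.827% of the counts in 1, 2L, 2R, 3, 4a, 4b, 5 and 6. Library 3 stood far above the others, with a Wilson interval of 18.71% to 18.78%, and 5 came next. The highest share was 22.7 times the lowest, and 7.27 times without library 3. For the tRNAs the same quotient was 34.6, and 21.7 without library 6.

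**Figure D3:**
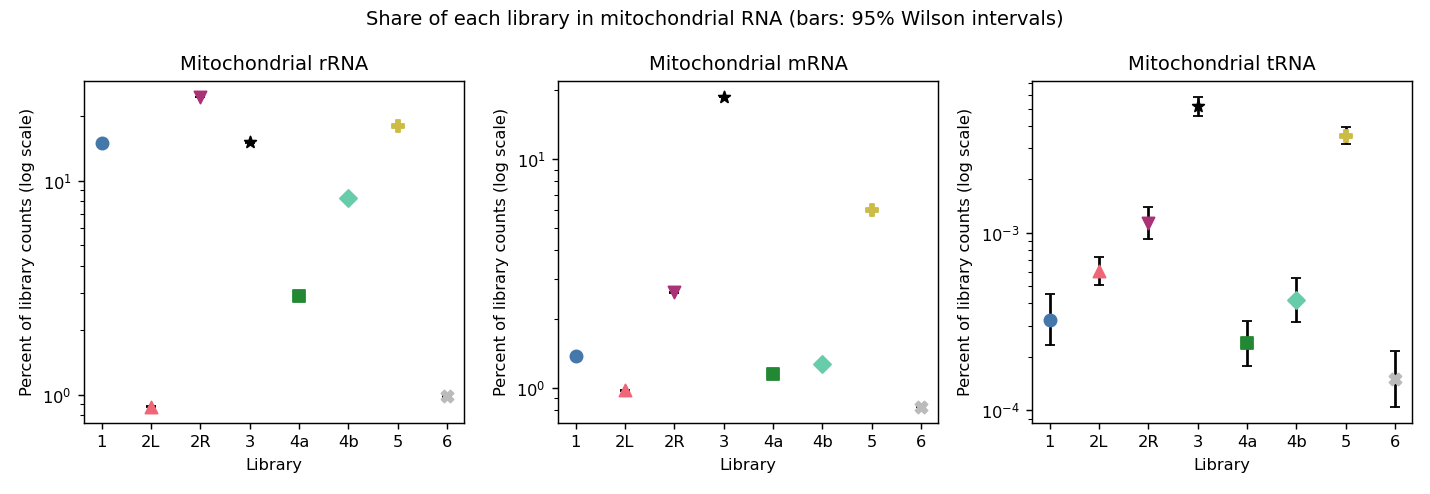
Percent of all counts (log axes) in mitochondrial rRNA, mRNA and tRNA for each library, with 95% Wilson intervals that cover counting error only. rRNA peaks in 2R at 24.7%, mRNA and tRNA in 3 at 18.7% and 0.00517%.

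The 6 mRNAs of the plus strand with more than 1 count in all were each highest in library 3 and next in 5. mt-Co1 (ENSMUSG00000064351, chrM:5328-6872), the catalytic subunit of cytochrome c oxidase, stood at 8400, 6247, 14647, 85265, 6262, 4844, 23208 and 5714 CPM in 1, 2L, 2R, 3, 4a, 4b, 5 and 6. It was lowest in 4b, whereas the other 5 of these mRNAs were lowest in 6. mt-Cytb (ENSMUSG00000064370, chrM:14145-15288), the cytochrome b of complex III, stood at 1738, 970, 3404, 30340, 1654, 2738, 11363 and 851 CPM in the same order, highest in 3 and lowest in 6.

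The complex I subunits of that strand shared this order at the ends. mt-Nd1 (ENSMUSG00000064341, chrM:2751-3707) stood at 1958, 1207, 3773, 26381, 1654, 2118, 10026 and 752 CPM in 1, 2L, 2R, 3, 4a, 4b, 5 and 6. mt-Nd5 (ENSMUSG00000064367, chrM:11742-13565) stood at 776, 689, 2043, 22518, 944, 1463, 7772 and 519 CPM. Both encode membrane subunits of complex I, and in both 3 and 5 lay above 2R and 2R above the rest. mt-Nd4 (ENSMUSG00000064363, chrM:10167-11544), another membrane subunit, stood at 518, 366, 1277, 14162, 513, 740, 4053 and 250 CPM in the same order of libraries. mt-Nd2 (ENSMUSG00000064345, chrM:3914-4951) stood at 371, 261, 933, 8682, 414, 777, 3664 and 148 CPM. All 4 were lowest in 6 and next lowest in 2L.

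mt-Nd6 did not follow. This complex I subunit (ENSMUSG00000064368, chrM:13552-14070) is the only mRNA of the opposite strand, and it stood at 41.6, 8.94, 103, 118, 44.5, 20.4, 31.1 and 36.7 CPM in 1, 2L, 2R, 3, 4a, 4b, 5 and 6. Libraries 3 and 2R were close together at the top, and 5, the library next to 3 for the 6 counted mRNAs of the plus strand, lay below the median of 39.1 CPM.

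Per length, the ribosomal RNAs and mt-Co1 led and mt-Nd6 came last. All counts of a gene were divided by its bases outside the copied stretch, which presumes that none came from inside it. Whether this holds for mt-Co1 and mt-Nd4 was not tested. The median levels were then 60504 CPM per kilobase for mt-Rnr2, 13650 for mt-Rnr1, 6903 for mt-Co1 and 2129 for mt-Nd1. They were 1956 for mt-Cytb, 1252 for mt-Nd4, 660 for mt-Nd5, 574 for mt-Nd2 and 75.4 for mt-Nd6. mt-Rnr1 exceeded mt-Co1 in only 4 of 8 libraries, so these neighbours had no fixed order. mt-Nd1 exceeded mt-Cytb, and mt-Cytb exceeded mt-Nd4, in 7 of 8 libraries. Each other neighbour in this order held its place in 8 of 8. Over its whole length mt-Nd4 would stand at a median of 456 CPM per kilobase, below mt-Nd5 and mt-Nd2, and mt-Co1 at 4745. mt-Nd5 over mt-Nd4 per kilobase of whole length was 1.13 in 1 to 1.57 in 6, so the place of mt-Nd4 depends on this choice.

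Ratios between RNAs of the same library do not depend on depth or scaling, and they separated stable from unstable pairs. A 2-fold difference is 1 on the log2 scale used for their SD. mt-Nd5 and mt-Nd4, which are neighbours on the genome apart from 3 tRNAs, kept the tightest ratio of all 36 pairs that could be formed from 9 RNAs. mt-Nd5 over mt-Nd4 was 1.50, 1.88, 1.60, 1.59, 1.84, 1.98, 1.92 and 2.08 in 1, 2L, 2R, 3, 4a, 4b, 5 and 6 (SD 0.17 on the log2 scale, n = 8). All 8 libraries lay within 1.39-fold of each other, although mt-Nd5 itself varied from 519 to 22518 CPM.

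mt-Cytb over mt-Nd1, which lie far apart on the same strand, was almost as steady, with 0.888, 0.804, 0.902, 1.15, 0.9998, 1.29, 1.13 and 1.13 in the same order (SD 0.23, n = 8). Among the 5 mRNAs mt-Nd1, mt-Nd2, mt-Nd4, mt-Nd5 and mt-Cytb, a set named after its values were seen, the SD of the 10 log2 ratios ran from 0.17 to 0.39. Over all 36 pairs its median was 1.41.

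mt-Co1 moved apart from those 5 mRNAs. mt-Co1 over mt-Cytb was 4.83, 6.44, 4.30, 2.81, 3.79, 1.77, 2.04 and 6.71 in 1, 2L, 2R, 3, 4a, 4b, 5 and 6 (SD 0.72, n = 8). The ratio was highest in 6 and 2L and lowest in 4b and 5, and its range was 3.79-fold. mt-Co1 accordingly made up 69.1% of the counted mitochondrial mRNA in 6 and 64.1% in 2L, but 38.1% in 4b and 38.6% in 5. mt-Cytb had its largest share in 4b, at 21.6%, and its smallest in 2L, at 9.95%. Because mt-Co2, mt-Co3, mt-Atp6, mt-Atp8, mt-Nd3 and mt-Nd4l are missing from these sums, the shares describe the counted mRNAs only.

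**Figure D4:**
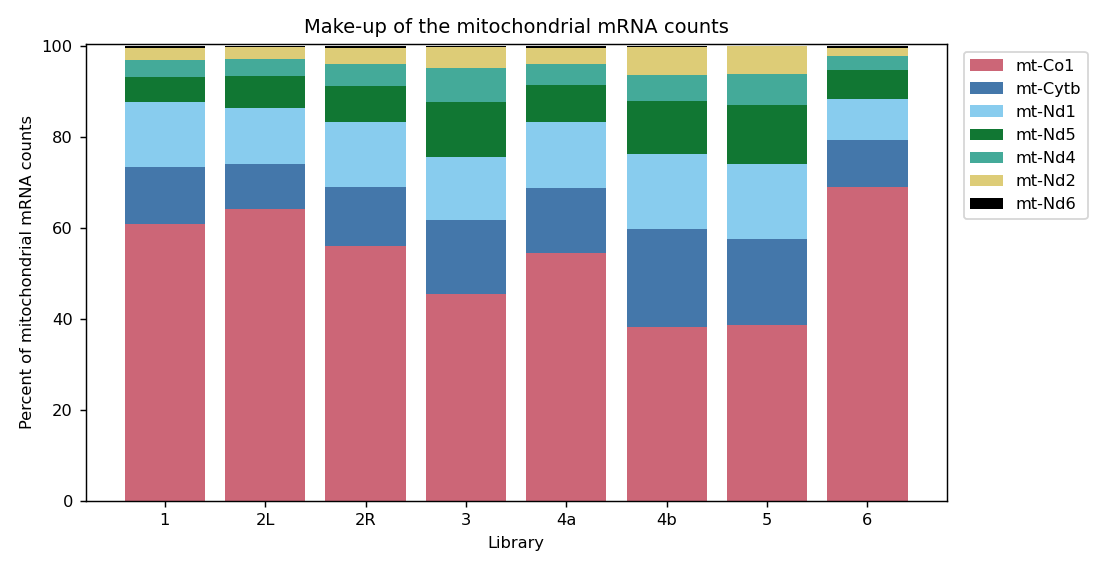
Make-up of the mitochondrial mRNA counts of each library in percent, for the 7 mRNAs with at least 10 counts. mt-Co1 takes from 38.1% in 4b to 69.1% in 6, and mt-Nd6 at most 0.443%.

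mt-Nd6, the opposite-strand mRNA, moved apart from all other members. In its 8 pairs the SD of the log2 ratio ran from 1.10 with mt-Co1 to 1.84 with mt-Rnr1, with a median of 1.55. Such a spread was not particular to mt-Nd6. Pairs of an rRNA with mt-Nd1, mt-Nd2, mt-Nd4, mt-Nd5 or mt-Cytb had SDs of 1.41 to 1.67, and mt-Co1 with mt-Rnr1 had 1.72. mt-Nd6 over mt-Nd5 was 0.0536, 0.0130, 0.0504, 0.00524, 0.0471, 0.0140, 0.00400 and 0.0707 in 1, 2L, 2R, 3, 4a, 4b, 5 and 6 (SD 1.62 on the log2 scale, n = 8). There was 1 count of mt-Nd6 for 250.1 counts of mt-Nd5 in library 5 and for 14.2 in 6, a 17.7-fold range. Libraries 1, 2R, 4a and 6 lay at 0.0471 or above, and 2L, 3, 4b and 5 at 0.0140 or below, with no library between. The exact 95% counting intervals, 0.0439 to 0.0505 in 4a and 0.0122 to 0.0159 in 4b, did not meet. Libraries of the same title number fell on different sides, 2L below and 2R above, and 4a above and 4b below.

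The ratio of the ribosomal RNAs to each other was also uneven. mt-Rnr2 over mt-Rnr1 was 6.69, 10.3, 7.52, 3.25, 10.1, 11.5, 6.43 and 15.1 in the same order (SD 0.68, n = 8). Library 3 was the lowest and 6 the highest, a 4.66-fold range, and without library 3 the SD was 0.45. The part of the depletion step in this ratio was not tested. mt-Rnr1 is transcribed ahead of mt-Rnr2, and both are cut from 1 precursor, which is background and not a result.

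Ribosomal RNA over mRNA ranged more widely. The ratio was 10.8, 0.899, 9.43, 0.805, 2.52, 6.51, 2.999 and 1.19 in 1, 2L, 2R, 3, 4a, 4b, 5 and 6 (SD 1.50 on the log2 scale, n = 8). Libraries 1 and 2R held about 10 rRNA counts for each mRNA count, and 2L, 3 and 6 about 1. These are ratios of counts after ribosomal RNA depletion, and the part of that step in them was not tested. The mRNA sum also holds at most 1 count from the mRNAs wholly inside the copied stretch. Libraries 3 and 1 had nearly equal rRNA shares, 15.1% and 15.0%, and mRNA shares of 18.7% and 1.38%. tRNA over mRNA lay between 0.000181 in 6 and 0.000625 in 2L, and its SD of 0.68 rests on as few as 29 tRNA counts.

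**Figure D5:**
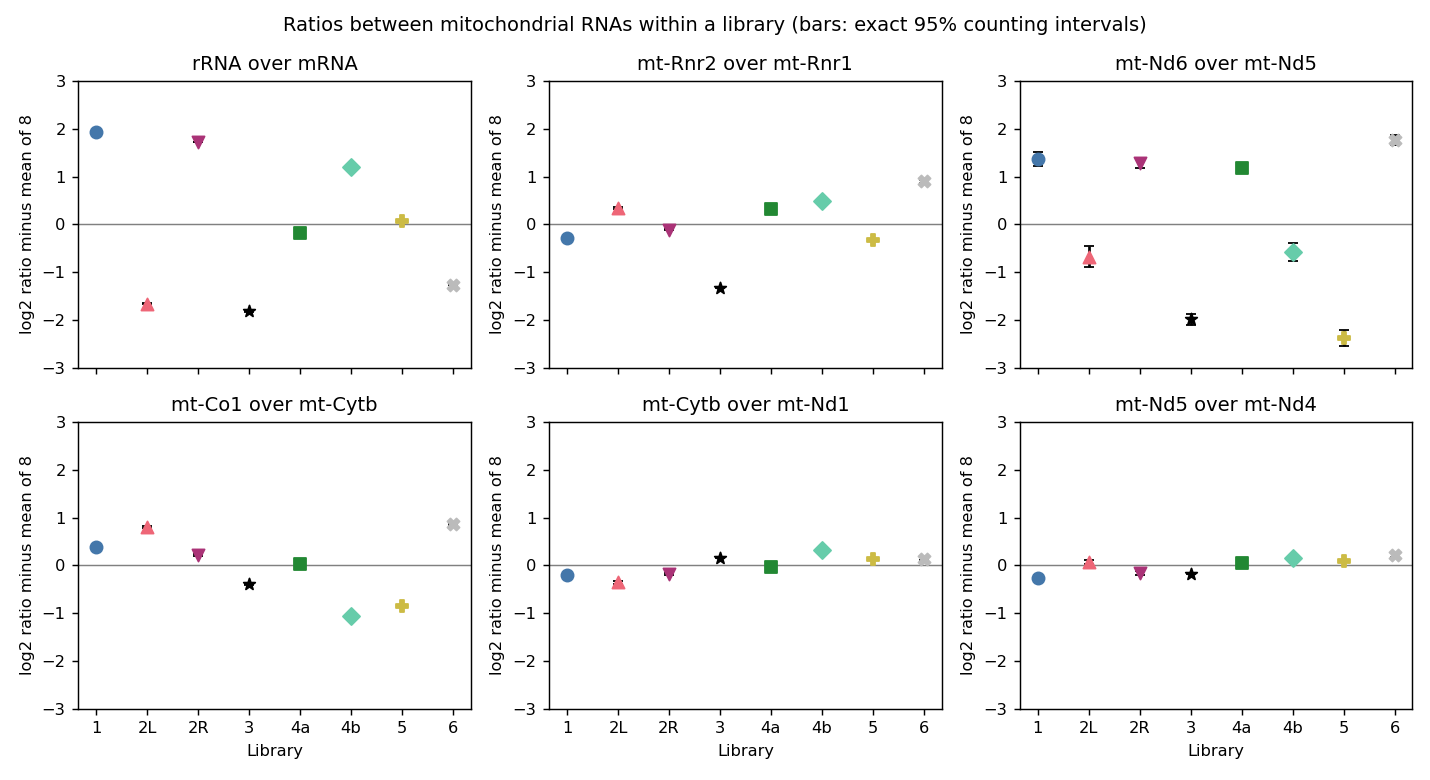
log2 ratios between mitochondrial RNAs in each library, minus their mean over the 8 libraries, all on the same axis, with exact 95% counting intervals. mt-Nd5 over mt-Nd4 and mt-Cytb over mt-Nd1 stay near 0 (SD 0.17 and 0.23), and mt-Nd6 over mt-Nd5 and rRNA over mRNA spread over several doublings (SD 1.62 and 1.50).

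The title numbers pair 2L with 2R and 4a with 4b, and this allows a comparison among the 6 numbers against the spread within pairs. With edgeR's quasi-likelihood test, 0 of the 9 members tested passed an adjusted p of 0.05, and of all 11505 genes tested 0 passed as well (0%). At an unadjusted p under 0.05 stood 5 of 9 members, mt-Nd1, mt-Nd2, mt-Nd4, mt-Nd5 and mt-Cytb, against 24.5% of all genes. Their adjusted p in edgeR ran from 0.124 for mt-Nd4 to 0.161 for mt-Cytb, and those of mt-Rnr1 and mt-Rnr2 were 0.454 and 0.784. DESeq2's likelihood ratio test called 6 of 9 members, all but mt-Rnr1, mt-Rnr2 and mt-Nd6, against 20.6% of all genes. Without 2L, or without 2R, the spread inside a number came from 4a and 4b alone, and edgeR then called 8 of 9 members, all but mt-Rnr2, against 38.7% of 11506 genes without 2L and 39.3% of 11584 genes without 2R. Members share transcripts, so these counts are not independent of each other.

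Relative to the mitochondrial mRNA of the same library, edgeR called 0 of 9 members among the numbers, against 0.6% of all genes, and 0 of 9 had an unadjusted p under 0.05, against 36.8%. DESeq2 likewise called 0 of 9, against 93.3% of all genes, all of which share that denominator. The denominator is the sum of the counted mitochondrial mRNAs, and mt-Co1 alone made up 38.1% to 69.1% of it. For these mRNAs the absence of calls was thus largely set in advance, and it is no contrast to the shares of all genes. Without 2R edgeR called 3 of 9 members, mt-Nd6, mt-Rnr1 and mt-Nd2, and without 2L it called 2 of 9, mt-Nd6 and mt-Rnr1, while each of these fits called 99.9% of all genes.

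The same-numbered pairs have 1 library on each side, and their ratios were not tested. In 2L over 2R, after TMM scaling, all 9 members were at least 2-fold lower, against 7.19% of 10542 genes, and 0 were higher, against 9.43%. The median log2 ratio was -2.48 for the 9 members and -0.01 for all genes. mt-Rnr1 and mt-Rnr2 had log2 ratios of -5.88 and -5.43, mt-Nd6 -4.16, and the other 6 between -1.89 for mt-Co1 and -2.50 for mt-Nd2. Without TMM factors all 9 were also at least 2-fold lower, against 2.23% of genes, with 27.2% of genes higher. In 4a over 4b, 3 of 9 members were at least 2-fold lower, against 1.67% of 10360 genes, and 0 were higher, against 2.27%. These 3 were mt-Rnr2 (-1.69), mt-Rnr1 (-1.51) and mt-Nd2 (-1.07). mt-Nd6 and mt-Co1 ran the other way, at 0.96 and 0.21, and the median was -0.79 for the 9 members and -0.01 for all genes. Without TMM factors mt-Nd6 passed 2-fold, at 1.12, and 2 members were lower, against 3.89% of genes higher and 0.995% lower. mt-Nd6 was thus lower in 2L than in 2R and higher in 4a than in 4b, while both ribosomal RNAs were lower in 2L and in 4a.

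After TMM scaling, the SD of log2 CPM over the 8 libraries was 1.66 to 2.81 for the 9 members, with a median of 2.31, against a median of 0.51 for all 11505 genes tested. This describes only genes that passed the filter, which the other 28 members did not.

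A list of 45 nuclear genes held those that make, process or degrade mitochondrial RNA or copy its DNA. It also held the regulators of nuclear transcription Ppargc1a, Ppargc1b, Nrf1 and Gabpa. Of the 45, 41 passed the filter, and their median SD of log2 CPM was 0.43, against 0.51 for all genes. Among title numbers edgeR called 0 of these 41, with 10 at an unadjusted p under 0.05, against 24.5% of all genes, and DESeq2 called 7, against 20.6% of all genes. Both counts are near the share of all genes. Lrpprc, which stabilises mitochondrial mRNAs, was the most abundant on average, at 223 ± 217 CPM after TMM scaling (SD, n = 8), and stood at 623 CPM in 2L, 422 in 3, 363 in 5 and 36.1 to 99.2 elsewhere (edgeR adjusted p = 0.547). Without TMM factors Lrpprc stood at 808 CPM in 2L, 165 in 3 and 353 in 5. The RNA-binding gene Grsf1, the transcription factor gene Gabpa and Polg, the mitochondrial DNA polymerase, averaged 79.8 ± 15.4, 62.1 ± 6.48 and 57.0 ± 34.4 CPM (SD, n = 8). Tbrg4 and Twnk, the mitochondrial DNA helicase, reached 99.1 and 74.0 CPM in 3, above a maximum of 16.7 and 15.1 CPM in the other libraries (edgeR adjusted p = 0.0974 for each). Without TMM factors they were also highest in 3, at 38.6 and 28.9 CPM, whereas Polg was highest in 4b. Ppargc1a, a coactivator of mitochondrial gene programs, stood at 70.8 CPM in 3 and 50.04 in 6 (edgeR adjusted p = 0.118), and without TMM factors it was highest in 6, at 63.5 CPM against 27.6 in 3.

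The 85 nuclear genes for respiratory chain and ATP synthase subunits summed to 1360 CPM in 3 and to 9240 in 6, the libraries with the most and the least mitochondrial mRNA. These CPM are parts of all counts and fall where other RNAs take more of a library. The mitochondrial genes took 33.8% of the counts in 3 and 1.81% in 6, and Gm26917 with Gm42418 took 27.6% and 0.507%. The sum relative to nuclear protein-coding counts was not computed. Per 100 counts of these nuclear genes there were 13783 mitochondrial mRNA counts in 3, 1259 in 5 and 89.5 in 6, with a median of 264.

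Markers of cells rich or poor in mitochondria are given beside these shares, and their part in them was not tested. All 12 skeletal muscle markers had counts in at least 1 library and summed to 28031 CPM in 2L, 2662 in 3 and 18.3 to 101 elsewhere, while 2L had the second lowest mitochondrial mRNA share. The 4 cardiac muscle markers summed to between 0 in 4b and 19.1 CPM in 2L. The 4 brown fat markers summed to between 0.621 CPM in 4b and 105 in 2L, with Ucp1, which uncouples respiration, at 87.2 CPM in 6 and at most 16.1 elsewhere, and Cox8b at 0 in 4a, 4b and 6. The 4 red cell markers summed to 14109 CPM in 5 and 21.03 to 451 in the others. The 4 macrophage markers ranged from 41.1 CPM in 3 to 2765 in 6.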

How the data were processed

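RNA of 8 tumor samples of 1 genotype was sequenced after ribosomal RNA depletion. The authors deposited raw gene counts in 8 columns, and the submitters' processing notes name the build mm10 and the tools STAR 2.7.5a, RSEM, featureCounts and cutadapt, with no roles. Which tool made the counts, strand handling and the treatment of reads with several positions are not given in the sources used here. GENCODE M21 (mm10) named 49412 of 49671 identifiers (99.48%). No genome sequence was used here: copies were searched among the M21 transcripts with blastn 2.17.0, and sequences were read from those transcripts.

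Members and lists were chosen with earlier results of these data known. Every member is named. Both rRNAs, mRNAs with at least 10 counts in a library and the 4 most counted tRNAs are given by library. From the list of nuclear genes for mitochondrial RNA, the 4 of highest mean and the 4 of largest SD are named. Ratios with under 10 counts on either side were not formed, which left out mt-Nd4l over mt-Nd4, mt-Co3 over mt-Cytb and mt-Atp8 over mt-Atp6.

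In R 4.3.3, edgeR 4.0.16 (filterByExpr for 1 group, minimum of 10 counts; TMM factors 0.394 to 1.36; robust quasi-likelihood F-test, Benjamini-Hochberg at 0.05 over all genes) compared the 6 title numbers on 2 residual degrees of freedom, and DESeq2 1.42.0 served as an alternative. A second fit took the summed mitochondrial mRNA counts as library size. Pair ratios used a prior count of 2 and genes of at least 5 CPM in the pair. After these fits, the edgeR test was also run on data simulated with levels and dispersions from these counts, with the outcome not reported here. Library totals were 4817902 to 19682149 counts. Wilson and exact 95% intervals and the floor of 3 counts cover counting error only, and reads without molecular identifiers are not independent molecules. P-values set differences among the title numbers against the spread within the pairs 2L with 2R and 4a with 4b, whose meaning is not given.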

Additional observations from a re-analysis of the deposited data

Results flagged for a closer look

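Of 25 quantities compared across the 8 libraries, 12 had 1 library far from the rest. The measure was the gap to the nearest other library divided by the whole range, without logarithms (Dixon's 95% critical value). For normally distributed values chance flags about 1 group in 20. Shares and CPM sums are skewed here, so that rate does not hold for them, and flags on a log scale were not computed. Library 3 was the highest in 9 of the 12. Its gap was 0.711 of the range for the mitochondrial mRNA share, 0.772 for mt-Co1, 0.727 for mt-Nd4, 0.67 for mt-Nd5, 0.644 for mt-Cytb, 0.638 for mt-Nd1 and 0.588 for mt-Nd2. These 7 quantities are parts of one another and not separate observations. The same library stood apart for Gm26917 and Gm42418 together (0.699) and for Gm23935 (0.541), a noncoding RNA gene. Library 2L stood apart for the skeletal muscle markers (0.906), 5 for the red cell markers (0.969) and 6 for the macrophage markers (0.581). mt-Nd6, both rRNAs and all 7 ratios had no such library.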

How the results depend on the processing

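Calls among title numbers depended on scaling, filter and test. Against 0 of 9 members in edgeR with TMM, 6 were called by DESeq2, 7 with total counts in place of TMM, and 12 of 25 with no filter on low counts. With DESeq2's size factors, a mean CPM of at least 5, or scaling from genes outside the members and structural RNAs, 0 were called. Over all genes, against 0, the calls were 2368 by DESeq2 (20.6% of genes tested), 4296 with total counts (37.3%) and 6260 with no filter (20.6%), and 4457 without 2L and 4548 without 2R. Leaving out 1 library gave 0 to 8 member calls, and 0 to 3 relative to mitochondrial mRNA. That second fit gave 0 member calls under every other alternative run, and over all genes 69 calls, against 10735 by DESeq2, 2412 with no filter, 603 at a mean CPM of at least 5, 0 with rRNA and mRNA as denominator, and 0 to 11568 with 1 library left out. Total counts moved the median of all genes in 2L over 2R to 0.65, against -0.01 with TMM, and in 4a over 4b to 0.14. In 4a over 4b they also put 1 member, mt-Nd6, at least 2-fold higher. Highest over lowest mRNA share was 89.4 per nuclear protein-coding count and 153.99 per nuclear respiratory chain count, against 22.7 of all counts, with 136 and 235 for tRNA, against 34.6, and 68.5 and 104 for rRNA, against 28.1. Of counts outside structural RNAs it was 37.4 for mRNA, 57.0 for tRNA and 31.6 for rRNA. Leaving out 1 library gave 7.27 to 22.7 for mRNA, 20.6 to 28.1 for rRNA and 21.7 to 34.6 for tRNA. The SD of the log2 ratio then lay at 0.15 to 0.18 for mt-Nd5 over mt-Nd4, 1.41 to 1.73 for mt-Nd6 over mt-Nd5 and 0.45 to 0.73 for mt-Rnr2 over mt-Rnr1. The causes were not tested. No paired analysis was possible because the labels give 1 group. Medians per kilobase outside the copied stretch were added after seeing the data.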
